A study of Mus musculus with 4 samples.

Results

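The 35 genes described here carry the cell division cycle: the cyclins and their kinases, the brakes on them, the replication machinery and the mitotic apparatus. They were taken as a named list of symbols with no threshold on a measured value, although results of these data were known when the list was drawn up, and all 35 were found among the 24148 genes of the count table. RNA was sequenced from primary microglia of the mouse, which are the macrophages that reside in the brain, after 4 h with lipopolysaccharide (LPS, a cell wall component of Gram-negative bacteria) at 10 ng/ml (LPS, 2 libraries) or without treatment (control, 2 libraries). The labels give no strain, sex or age. In both groups the cells had been shaken off mixed glial cultures grown in serum-containing medium and plated again, with no sort or gate described, so other glia can be present. The labels do not say whether replicates are separate cultures or animals, and the p-values therefore measure only the spread between these libraries, which may be technical.

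A cell commits to division in G1, when D-type cyclins with Cdk4 or Cdk6 phosphorylate the retinoblastoma protein and release E2F factors, which switch on the genes of S phase. Cyclins E and A with Cdk2 then drive replication, and cyclin B with Cdk1 drives mitosis, while inhibitors such as p21 and p27 hold the kinases back. Many mitotic genes are kept silent outside the cycle by a repressor complex that binds a short promoter element, the cell cycle genes homology region (CHR), and many are activated through nearby CCAAT boxes. Microglia divide slowly in the adult brain and can proliferate in culture and after injury. Mki67, which encodes the chromosome-coating protein Ki-67, is the common marker of dividing cells, so whether it moved with the other genes of the cycle was the question put to these data.

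Promoter sequences are shown for the 3 genes of the list with the largest increases after LPS, Mki67, Plk2 and Cdk6, and for Top2a, a mitotic gene that was not called and whose upstream region shares its elements with Mki67. Each line is the 250 bases before the transcription start that RefSeq's table for GRCm38.p6 uses for the gene, 5′ to 3′ along its strand. A gene can have other starts. The window lies partly inside the annotated span of the gene for Mki67 and Top2a, and wholly inside it for Cdk6. Capitals mark every match, on either strand, to the letters of the CHR (TTTGAA), the CCAAT box (CCAAT), an E2F site (TTTNNCGC), an NF-kB site (GGGANNTTC) or an interferon-stimulated response element (GAAANNGAA). No match overlapped another.
Mki67 (chr7:135716380-135716629, minus strand): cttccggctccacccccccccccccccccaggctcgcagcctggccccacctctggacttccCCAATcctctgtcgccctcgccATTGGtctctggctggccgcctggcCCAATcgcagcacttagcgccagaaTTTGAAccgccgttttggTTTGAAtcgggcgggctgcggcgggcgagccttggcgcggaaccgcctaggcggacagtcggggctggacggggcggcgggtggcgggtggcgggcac
Top2a (chr11:99024190-99024439, minus strand): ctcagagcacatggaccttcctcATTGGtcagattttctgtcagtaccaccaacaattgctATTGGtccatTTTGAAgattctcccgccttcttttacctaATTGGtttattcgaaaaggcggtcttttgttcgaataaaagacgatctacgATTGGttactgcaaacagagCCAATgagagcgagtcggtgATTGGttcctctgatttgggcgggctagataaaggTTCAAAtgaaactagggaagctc
Plk2 (chr13:110394794-110395043, plus strand): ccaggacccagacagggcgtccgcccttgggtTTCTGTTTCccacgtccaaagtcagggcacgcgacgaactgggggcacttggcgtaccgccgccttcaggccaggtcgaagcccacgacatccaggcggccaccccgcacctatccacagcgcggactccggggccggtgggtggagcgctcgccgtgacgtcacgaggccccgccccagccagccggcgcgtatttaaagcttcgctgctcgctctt
Cdk6 (chr5:3343643-3343892, plus strand): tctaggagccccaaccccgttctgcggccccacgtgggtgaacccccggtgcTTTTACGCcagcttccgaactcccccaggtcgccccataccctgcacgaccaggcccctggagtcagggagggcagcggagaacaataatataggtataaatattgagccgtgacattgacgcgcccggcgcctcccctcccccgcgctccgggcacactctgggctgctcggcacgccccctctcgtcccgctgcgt
Mki67 held 2 CHR and 3 CCAAT matches, and Top2a held 2 CHR and 6 CCAAT matches. Top2a was not alone in this, as Cdk1, also not called, held 2 CHR, 3 CCAAT and 2 E2F matches. In Mki67 the CHR matches began at positions -116 and -98, counted from the start. Plk2 held 1 match to the interferon-stimulated element and Cdk6 held 1 to the E2F letters. Among 32851 promoter windows of the same length, 16.0% held the CHR letters, 33.8% the CCAAT letters, 4.28% the E2F letters, 3.23% the NF-kB letters and 7.13% the interferon element letters. Of the 35 genes, 28 had a window in the RefSeq table. Of these, 6 held a CHR match, 20 a CCAAT match, 6 an E2F match, 2 an NF-kB match and 1 an interferon element match. These are matches of letters and were not tested as binding sites.

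The libraries held 5095630 and 4592474 counts after LPS and 3617176 and 4080568 in control. The unit of level is CPM, for which the counts of the tested genes were brought to a common total with TMM factors, and differences are given as log2 fold change of LPS over control ± standard error. Microglial markers were present in all libraries. The summed level of 12 was 2530 and 2190 CPM in LPS and 3820 and 3060 CPM in control, with Itgam, which has 2 accessions in the table, at 0 counts throughout. Markers of other glia differed between libraries of the same group. A sum of 9 oligodendrocyte lineage markers was 417 and 60.9 CPM in LPS replicates 1 and 2 and 407 and 69.0 CPM in control replicates 1 and 2. A sum of 9 astrocyte markers was 137 and 453 CPM in LPS and 121 and 323 CPM in control, with none at 0 in all libraries. A sum of 6 fibroblast markers was 39.2 and 64.8 CPM in LPS and 26.0 and 41.7 CPM in control, with Pdgfrb at 0. No gene of any of these marker lists, nor of the neuronal and endothelial ones, was called by edgeR between LPS and control. That fit had no term for the replicate number. Of the 34 markers tested, 0 higher and 5 lower had an unadjusted p under 0.05, and DESeq2 and limma-trend called 0. In bulk RNA, fewer cells of a type and less RNA per cell cannot be told apart.

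Of the 35 genes, 22 reached a mean of 10 counts over the 4 libraries and were tested. After LPS, 4 of the 22 were higher and 0 lower at an adjusted p under 0.05 in edgeR's quasi-likelihood test, or 18.2% and 0%. At an unadjusted p under 0.05, 3 were lower (Rb1, Mcm2 and Mcm7), and DESeq2 and limma-trend also called 0 lower. Over all 9548 genes tested, 6.55% were higher (625 genes) and 1.79% lower (171 genes). The 4 were Mki67, Plk2, Cdk6 and Pcna. Each comes from a different role group of the list, but Plk2 was set in a group of its own. The median log2 fold change of the 22 was -0.20, against -0.05 over all genes tested, with 7 values above 0 and 15 below. Both LPS libraries lay above both controls for 4 genes, and below both for 5, or 22.7%. Over all genes tested, 24.7% lay above and 25.8% below in this way, so the share below was near the background. Calls in these Results come from fits without a replicate block (a term for the replicate number), unless one is named. With a block, edgeR called 10 of the 22 (5 higher, 5 lower), or 45.5%, against 30.7% over all genes tested.

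**Figure D1:**
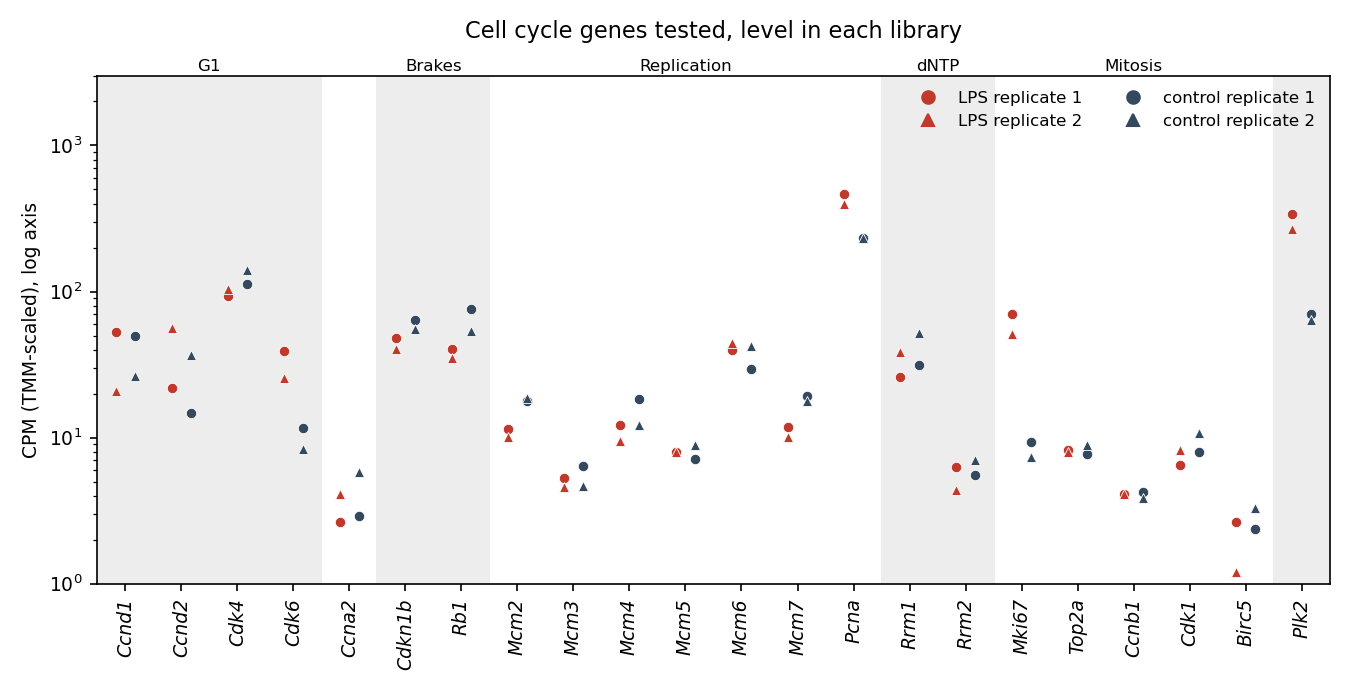
Level of each of the 22 tested genes in each library, in TMM-scaled CPM on a log axis, with LPS to the left of control for each gene and genes grouped by role. Mki67, Plk2, Cdk6 and Pcna lie higher in both LPS libraries than in either control, with LPS Mki67 at 70.7 and 51.5 CPM against 9.27 and 7.36 CPM in control. Cdk4, Cdkn1b, Rb1, Mcm2 and Mcm7 lie lower in both LPS libraries than in either control. The other genes, Top2a and Ccnb1 among them, overlap.

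Mki67 (chromosome 7, 135689784 to 135716450, GRCm38) was the gene of the list that rose most. It had 294 and 213 counts in LPS replicates 1 and 2 and 35 and 38 counts in control replicates 1 and 2. That is 61.1 ± 13.6 CPM in LPS and 8.32 ± 1.35 CPM in control (SD, n = 2 each), 7.36-fold higher after LPS. Both LPS libraries were far above both controls, and the controls were close to each other. The log2 fold change was 2.88 ± 0.30 (edgeR adjusted p = 0.0046; 95% interval 2.14 to 3.62). With any 1 library left out it lay between 2.63 and 3.09, and Mki67 was called in each of these fits. Of the sums for other glia given above, those of oligodendrocyte lineage and astrocytes overlapped between the groups; the part of other cells in the Mki67 level was not tested. Mki67 overlaps no other gene of the RefSeq table, and its nearest neighbour Ptpre, a receptor-type phosphatase gene 3490 bases away on the opposite strand, was not called (0.75, adjusted p = 0.077).

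The other mitotic genes did not show this difference. Top2a, the topoisomerase that untangles sister chromatids, had 34 and 33 counts in LPS and 29 and 46 in control, a log2 fold change of -0.04 ± 0.32 (95% interval -0.84 to 0.76). Ccnb1, cyclin B1, had 17 and 17 counts in LPS and 16 and 20 in control (0.02 ± 0.38, interval -0.92 to 0.96). Its partner Cdk1, the mitotic kinase, had 27 and 34 counts in LPS and 30 and 55 in control (-0.34 ± 0.35, interval -1.22 to 0.53). The LPS and control libraries overlapped for all of these. Birc5, which encodes survivin, a subunit of the chromosomal passenger complex, had 11 and 5 counts in LPS and 9 and 17 in control (-0.57 ± 0.55, interval -1.94 to 0.81). Their edgeR adjusted p-values ran from 0.65 to 0.99. A change of up to about the bounds of these intervals cannot be told from none at this depth.

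Summed over the 10 mitotic genes of the list other than Mki67, the libraries held 119 and 102 counts in LPS and 120 and 181 in control. There were thus 2.47 and 2.09 Mki67 counts per count of the others in LPS, and 0.292 and 0.210 in control. This ratio is taken within a library and does not depend on scaling, and both LPS libraries exceeded both controls. Against Top2a alone it was 8.65 and 6.45 in LPS and 1.21 and 0.826 in control. An exact two-sided permutation test of 2 against 2 libraries can give no p below 0.333, so the difference between Mki67 and the rest is given as values only.

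**Figure D2:**
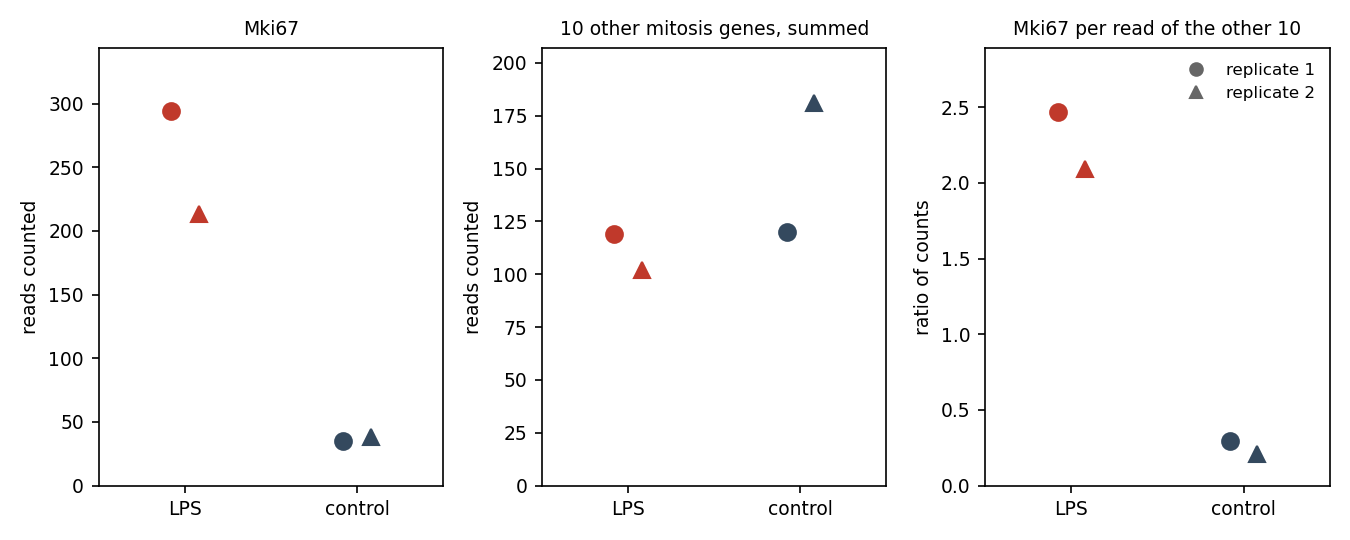
Counts of Mki67 (left), summed counts of the 10 other mitotic genes (middle) and their ratio (right) in each library, with axes from 0, red for LPS, dark for control, circles for replicate 1 and triangles for replicate 2. The LPS libraries hold 294 and 213 Mki67 counts against 35 and 38 in control, while the sum of the others is 119 and 102 in LPS and 120 and 181 in control.

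The remaining mitotic genes were too sparse to test. Plk1, the polo-like kinase that drives mitotic entry, had 9 and 4 counts in LPS and 14 and 12 in control. Ccnb2, cyclin B2, had 7 and 5 counts in LPS and 12 and 9 in control. Aurkb, the kinase of the chromosomal passenger complex, had 2 and 2 counts in LPS and 8 and 12 in control. All of these had fewer counts and a lower CPM in both LPS libraries than in either control, but they received no test. Over all genes tested, 25.8% lay below in this way. The nearest libraries were close for Ccnb2, at 1.68 CPM in LPS replicate 1 and 1.74 CPM in control replicate 2. For Plk1 these libraries were close too, at 2.16 and 2.33 CPM. Cdc20, an activator of the anaphase-promoting complex, had 12 and 2 counts in LPS and 2 and 10 in control, with no order by group. Aurka, the spindle pole kinase, and Bub1, a spindle checkpoint kinase, had 0 counts in each library. Each of these has 2 accessions in the table.

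Among the G1 genes, Cdk6 rose and the others were not called in the reported fit. Cdk6 (chromosome 5, 3341004 to 3531008), a kinase activated by D-type cyclins, had 39.2 and 25.4 CPM in LPS and 11.7 and 8.33 CPM in control. The groups did not overlap, and Cdk6 was 3.24-fold higher after LPS (1.70 ± 0.34, edgeR adjusted p = 0.042). Leaving out control replicate 2 ended this call (1.44, adjusted p = 0.080), as did leaving out LPS replicate 1 (1.35, adjusted p = 0.24) or LPS replicate 2 (1.98, adjusted p = 0.057), and so did total-count scaling (1.27, adjusted p = 0.060). Over the settings without a replicate block its adjusted p ran from 0.0049 to 0.24. The annotation places 2 non-coding genes, Gm36470 and Gm29868, over parts of Cdk6, and reads shared with them cannot be told apart since the strand setting of the counting is not given. Cdk4, the other D-cyclin kinase, had 93.8 and 104 CPM in LPS and 113 and 141 CPM in control (-0.36 ± 0.21, edgeR adjusted p = 0.44). With a replicate block edgeR called Cdk4 lower (-0.35, adjusted p = 0.046).

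Cyclins D1 and D2 differed between libraries of the same group more than between groups. Ccnd1, cyclin D1, had 53.2 and 21.0 CPM in LPS replicates 1 and 2 and 49.8 and 26.5 CPM in control replicates 1 and 2. Ccnd2, cyclin D2, ran the other way, with 21.9 and 56.3 CPM in LPS replicates 1 and 2 and 14.8 and 36.8 CPM in control replicates 1 and 2. Ccnd1 was high in both libraries numbered 1, where the oligodendrocyte lineage markers were also high, and Ccnd2 in both libraries numbered 2, where the sum of the astrocyte markers was also high. S100b, 1 of the 9 astrocyte markers, ran against that sum, with 39.4 and 2.66 CPM in LPS replicates 1 and 2 and 37.3 and 2.71 CPM in control replicates 1 and 2. The microglial sum was also higher in number 1, at 2530 against 2190 CPM in LPS and 3820 against 3060 CPM in control. The fibroblast, neuronal and endothelial sums were higher in number 2 of both groups. Single markers differed in this. Neuronal Stmn2 had 4.57 and 25.9 CPM in LPS replicates 1 and 2 and 4.24 and 22.7 CPM in control replicates 1 and 2. Neuronal Tubb3 ran against the sum, with 44.7 and 39.9 CPM in LPS and 46.6 and 38.8 CPM in control. Endothelial Kdr ran against its sum in control, with 9.53 and 6.59 CPM. The part of any of these cells in the cyclin levels was not tested. The log2 fold changes were -0.04 ± 0.52 for Ccnd1 (95% interval -1.33 to 1.26) and 0.59 ± 0.59 for Ccnd2 (-0.89 to 2.07), with edgeR adjusted p-values of 0.98 and 0.67. With a replicate block edgeR called Ccnd2 higher (0.59, adjusted p = 0.013) but not Ccnd1 (-0.09, adjusted p = 0.73). The labels do not say that the numbers pair the libraries. Ccnd3, cyclin D3, which has 3 accessions, had 0 counts in both LPS libraries and 0 and 1 in control.

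**Figure D3:**
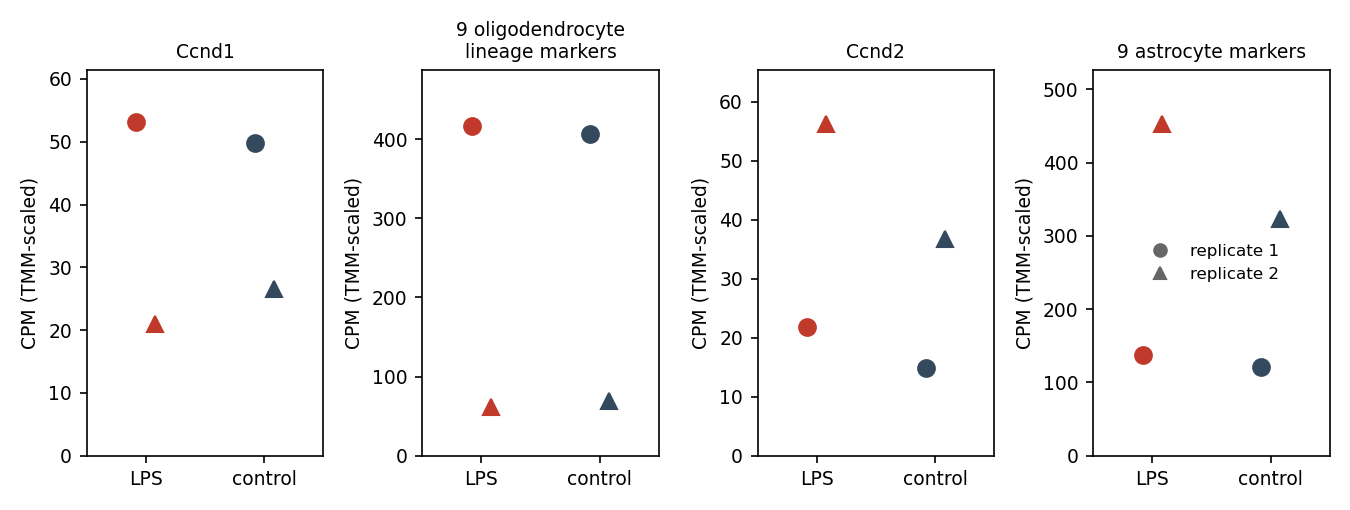
TMM-scaled CPM in each library of Ccnd1, of the sum of 9 oligodendrocyte lineage markers, of Ccnd2 and of the sum of 9 astrocyte markers, with axes from 0, LPS (red) left of control (dark), circles for replicate 1 and triangles for replicate 2. Ccnd1 and the oligodendrocyte lineage sum are higher in replicate 1 of both groups, and Ccnd2 and the astrocyte sum in replicate 2 of both groups. Sums of other cell types, the microglial one among them, also differed by replicate number and are not drawn.

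The genes of the 35 that restrain the cycle were not called in either direction in the reported fit. Rb1, the retinoblastoma protein that binds E2F factors, had 40.4 and 35.3 CPM in LPS and 76.5 and 53.9 CPM in control. Cdkn1b, the inhibitor p27, had 47.9 and 40.6 CPM in LPS and 63.8 and 55.0 CPM in control. Both lay lower in both LPS libraries than in either control, with log2 fold changes of -0.78 ± 0.26 and -0.42 ± 0.22 and edgeR adjusted p-values of 0.16 and 0.37. With total-count scaling Rb1 was called lower (-1.20, adjusted p = 0.030). With a replicate block edgeR called both genes lower (adjusted p = 7.8e-04 for Rb1 and 0.042 for Cdkn1b). Rb1 (chromosome 14, 73192858 to 73325951) spans Lpar6, a lysophosphatidic acid receptor gene on the opposite strand that touches no coding-transcript exon of Rb1 in GENCODE M21. Lpar6 had 41 and 68 counts in LPS and 514 and 584 in control (-3.24, edgeR adjusted p = 0.0041), and whether any of its reads were counted to Rb1 was not tested. Cdkn1a, the inhibitor p21, had 4 and 3 counts in LPS and 4 and 3 in control, spread over 2 accessions. E2f1, an activating E2F factor, had 0 and 1 counts in LPS and 2 and 0 in control.

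Of the S phase genes, Pcna rose. Pcna (chromosome 2, 132249286 to 132253180), the sliding clamp that holds DNA polymerases on their template and also serves repair, had 467 and 398 CPM in LPS and 234 and 231 CPM in control. It was 1.86-fold higher after LPS (0.89 ± 0.19, edgeR adjusted p = 0.046). The annotation holds 2 processed copies, Pcna-ps1 and Pcna-ps2, which may share reads with Pcna. Its controls were nearly equal and the groups did not overlap, yet the call lay close to the threshold. It did not hold in any fit that left out 1 library. The value was 0.89 (adjusted p = 0.095) when control replicate 1 was dropped, 0.85 (0.11) when control replicate 2 was, 0.77 (0.32) when LPS replicate 1 was and 1.01 (0.16) when LPS replicate 2 was. With total-count scaling it was 0.46 (0.21), and the adjusted p ran from 0.014 to 0.32 over the settings without a replicate block.

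The 6 subunits of the replicative helicase open DNA ahead of the polymerases. Without a replicate block they were not called by edgeR, DESeq2 or limma-trend. With a block, edgeR called Mcm2 and Mcm7 lower (adjusted p = 0.015 and 0.012). Mcm2 had 11.5 and 10.1 CPM in LPS and 17.7 and 18.6 CPM in control, and Mcm7 had 11.8 and 10.1 CPM in LPS and 19.3 and 17.8 CPM in control. For this pair the LPS libraries lay below both controls, with log2 fold changes of -0.74 ± 0.27 and -0.76 ± 0.27 and an edgeR adjusted p of 0.19 for each. Mcm6 ran slightly the other way, with 39.9 and 44.7 CPM in LPS and 29.7 and 42.2 CPM in control (0.23 ± 0.26, -0.22 with total-count scaling). Mcm3, Mcm4 and Mcm5 had log2 fold changes of -0.14, -0.50 and -0.02, and their groups overlapped. The 6 together summed to 88.8 and 87.0 CPM in LPS and 98.8 and 104 CPM in control. The median log2 fold change of the 6 was -0.32, against 0.89 for Pcna.

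Genes of deoxynucleotide supply and the S phase cyclins were not called. Rrm1, the large subunit of ribonucleotide reductase, had 26.2 and 38.4 CPM in LPS and 31.5 and 52.1 CPM in control (-0.38 ± 0.34). Rrm2, its small subunit, which accumulates in S phase, had 6.25 and 4.35 CPM in LPS and 5.56 and 6.98 CPM in control (-0.25 ± 0.39). Ccna2, cyclin A2, had 11 and 17 counts in LPS and 11 and 30 in control (-0.39 ± 0.51). The groups overlapped for each of these genes, with edgeR adjusted p-values from 0.63 to 0.80. Ccne1, cyclin E1, had 5 and 11 counts in LPS and 5 and 10 in control, too few to test. Cdk2, the partner of cyclins E and A, had 0 counts in both LPS libraries and 1 and 4 in control. Ccne2, cyclin E2, and Tyms, thymidylate synthase, had 0 counts in every library.

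Plk2 (chromosome 13, 110395044 to 110400844) encodes a polo-like kinase that, unlike Plk1, is active in G1 and is induced by stress and growth signals. It had 1402 and 1115 counts in LPS and 263 and 327 in control, or 337 and 269 CPM in LPS and 69.7 and 63.4 CPM in control. The lowest LPS library was well above the highest control. Plk2 was 4.56-fold higher after LPS (2.19 ± 0.22, edgeR adjusted p = 0.0041; 95% interval 1.65 to 2.73), and it was called with any 1 library left out, at 2.02 to 2.34.

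**Figure D4:**
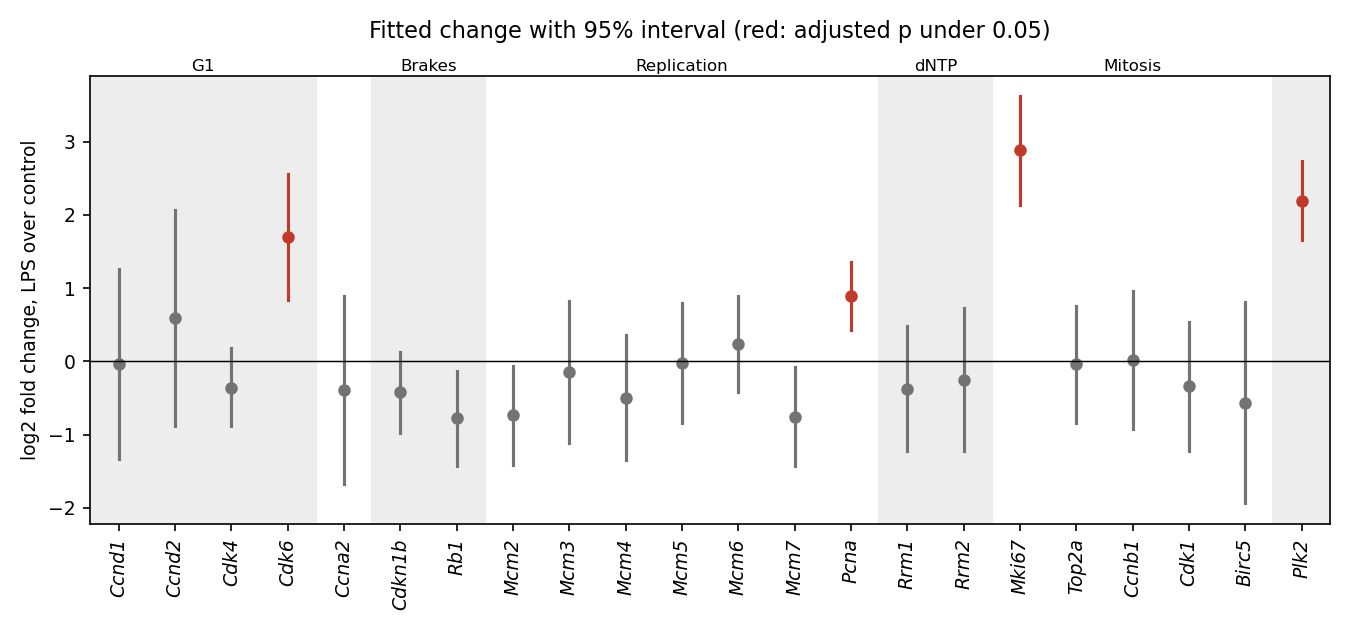
Log2 fold change of LPS over control for the 22 tested genes with its 95% interval from edgeR, grouped by role, red where the adjusted p was under 0.05. Mki67 (2.88), Plk2 (2.19), Cdk6 (1.70) and Pcna (0.89) are red, and the other 18 lie between -0.78 and 0.59.

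Of the 13 genes that were not tested, 8 have more than 1 accession in the table. Only 1 of the 9 such genes, Birc5, was tested, against 21 of the 26 genes with 1 accession. How reads shared by several accessions were counted is not given in the sources used here, so the low counts of Ccnd3, Ccne2, Cdk2, Cdkn1a, E2f1, Tyms, Aurka and Bub1 may not reflect their levels. A count of 0 allows up to 3 counts in a library, or 0.581 to 0.795 CPM, which covers counting error only.

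A wider list of 138 cell cycle genes gave few calls. Of 83 tested, 4 were higher (4.82%) and 1 lower (1.20%) after LPS, against 6.55% and 1.79% over all genes tested, a share near the background. None of 8 genes of origin licensing and firing and none of 18 of the replication fork and nucleotide supply was called by edgeR, DESeq2 or limma-trend. At an unadjusted p under 0.05, 1 licensing gene was higher and 1 lower, as were 1 and 3 genes of the fork and nucleotide supply. Both LPS libraries lay below both controls for 31.3% of the 83 and above for 20.5%, against 25.8% and 24.7% over all genes tested. For the 18 fork and nucleotide genes these shares were 44.4% and 11.1%, with a median log2 fold change of -0.33. None of 29 further mitotic genes was called either, and their log2 fold changes ran from -1.87 to 0.62. Together with the 4 tested mitotic genes above, 33 mitotic genes other than Mki67 had a median of -0.19. The highest upper bound of their 95% intervals was 1.72, below the lower bound of 2.14 for Mki67. These are intervals of single genes and give no test of Mki67 against the rest. Of the 54 mitotic genes of both lists other than Mki67, 21 were not tested. At an unadjusted p under 0.05, 0 of the 33 were higher and 1 was lower, and edgeR, DESeq2 and limma-trend called 0.

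Of the genes called on the wider list, Rbl1 and Cdkn2b were 2 of 10 tested genes of G1 and the restriction point (20.0% higher and 0% lower), and Gadd45b, Atm and Chek2 were 3 of 18 tested genes of checkpoints, p53 targets and cell cycle exit (11.1% higher and 5.56% lower). No enrichment was tested. Rbl1, the retinoblastoma relative p107, which represses E2F targets, had 319 and 154 counts in LPS and 30 and 42 in control, 7.06-fold higher (2.82 ± 0.42, edgeR adjusted p = 0.015). Without LPS replicate 1 its log2 fold change was 2.21. Of its 2 accessions, 1 held 313 and 151 of the LPS counts and 29 and 40 of the control counts. Gadd45b, a stress-induced gene that acts in cell survival and DNA repair, had 168 and 151 CPM in LPS and 24.4 and 26.2 CPM in control (2.66 ± 0.21, edgeR adjusted p = 0.0021). Cdkn2b, the inhibitor p15 of Cdk4 and Cdk6, had 38.2 and 34.3 CPM in LPS and 4.77 and 11.0 CPM in control (2.17 ± 0.42, edgeR adjusted p = 0.036). The LPS libraries lay above both controls for all of these. The annotation places the pseudogene Gm14277 over Rbl1 and the non-coding gene Gm12610 over Cdkn2b, and reads shared with them were not tested.

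Atm, the kinase that signals DNA breaks, had 54.1 and 72.7 CPM in LPS and 24.4 and 26.0 CPM in control (1.33 ± 0.25, edgeR adjusted p = 0.032). Chek2, a checkpoint kinase downstream of Atm, was the gene that fell, with 5.53 and 3.38 CPM in LPS and 15.4 and 18.4 CPM in control (-1.92 ± 0.37, adjusted p = 0.036). The changes of these 2 kinases of one pathway thus had opposite signs. Hscb, a close neighbour of Chek2 on the opposite strand, also fell, and whether its reads were counted to Chek2 was not tested. Cdkn2b was not called when LPS replicate 1 (2.09, adjusted p = 0.14) or LPS replicate 2 (2.25, adjusted p = 0.094) was dropped, nor with total-count scaling (1.69, adjusted p = 0.076, range 3.2e-04 to 0.14), and its value was 2.89 without control replicate 2. Atm was not called when any 1 library was dropped (1.10 to 1.53), nor with total-count scaling (0.90, adjusted p = 0.12, range 0.0043 to 0.19). Chek2 was not called when control replicate 2 (-1.81, adjusted p = 0.071), LPS replicate 1 (-2.31, adjusted p = 0.093) or LPS replicate 2 (-1.61, adjusted p = 0.17, range 0.0098 to 0.17) was dropped.

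The licensing factor Cdt1 and its inhibitor geminin (Gmnn) were chosen after their values were seen. Cdt1 had 17.6 and 13.3 CPM in LPS and 8.21 and 4.46 CPM in control (1.30 ± 0.41, edgeR adjusted p = 0.14). Gmnn had 6 and 3 counts in LPS and 21 and 14 in control (-1.88 ± 0.63, edgeR adjusted p = 0.16). Neither passed the threshold, and for neither did the groups overlap.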

How the data were processed

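The count table deposited by the authors has 4 columns, 1 per library, and 32915 rows, each a RefSeq transcript accession. It is called normalized by its name, but its values are whole numbers with unequal totals and were treated as counts. Tools named in the submitters' processing notes are HTSeq 0.6.1, Cufflinks 2.2.1, TopHat2 2.0.10, Trimmomatic 0.33 and CASAVA 1.8.2, with build mm10. What each did, how reads were counted, with which strand setting and on which annotation is not given in the sources used here.

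Accessions were named by a RefSeq gene table of GRCm38.p6 (32487) or GENCODE metadata (187); 241 kept their identifier. Counts were summed per symbol. With a minimum mean count of 10, genes were compared by edgeR's two-sided quasi-likelihood test (edgeR 4.0.16, R 4.3.3) with TMM factors (0.820 and 0.906 for LPS, 1.05 and 1.28 for control), no covariate, and Benjamini-Hochberg adjustment over all genes at 0.05. The chi-square per degree of freedom between replicates was 25.4 in LPS and 34.3 in control, beyond sampling noise. The script was tested on simulated counts. Alternatives were DESeq2 1.42.0, limma-trend (limma 3.58.1), other scalings and filters, the most abundant accession per gene, a replicate block and leaving out each library. All 35 genes are accounted for. The level of 1 marker gene is not reported here. From the wider list, called genes were named. The members and lists were chosen with earlier results of these data known.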

Additional observations from a re-analysis of the deposited data

How the results depend on the processing

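Mki67, Plk2, Rbl1 and Gadd45b were called with the same sign in all 13 fits, the one reported included. Of 315 comparisons of a single gene with its reported value, 273 kept sign and side of the threshold, 20 lost a call, 7 gained one and 15 changed sign. Leaving out 1 library moved the number of calls from 796 to between 368 and 826 over all genes, from 4 to between 2 and 3 among the 35 genes, and from 5 to between 2 and 4 on the wider list. When control replicate 2, LPS replicate 1 or LPS replicate 2 was dropped, Mki67 and Plk2 were the 2 genes of the 35 that were called. With total-count scaling, the log2 fold changes of all genes had a median of -0.48, against -0.05 with TMM, and the calls split into 469 higher and 489 lower, with 3 on the wider list. Relative to the median of all genes, Mki67 had 2.93 under both scalings and Pcna 0.94. Without the count filter the median was -0.18.

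The signs that changed belonged to genes without a call in either fit. Without the filter they were Ccnd1 (0.06), Mcm5 (0.09) and Top2a (0.06), and with total-count scaling Mcm6 (-0.22) and Ccnb1 (-0.41). With 1 library left out, the values ran from -0.85 to 0.48 for Ccnd1, from -0.25 to 1.38 for Ccnd2, from -0.79 to 0.19 for Ccna2, from -0.39 to 0.08 for Mcm3 and from -0.17 to 0.13 for Mcm5. They ran from -0.01 to 0.49 for Mcm6, from -0.69 to 0.01 for Rrm1, from -0.15 to 0.05 for Top2a and from -0.07 to 0.07 for Ccnb1. The cause was not tested.

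The labels do not say that replicate numbers pair the libraries. Deviations of the libraries numbered 1 from their group means correlated at 0.644 across genes. A fit with a replicate block gave 2934 called genes, 30.7% of those tested, among them 10 of the 35 genes (5 higher, 5 lower) and 22 of the wider list. The added calls among the 35 were Ccnd2 higher and Cdk4, Cdkn1b, Rb1, Mcm2 and Mcm7 lower, at adjusted p-values of 7.8e-04 to 0.046. The minimum count left 13 of the 35 genes untested, 6 of the 11 mitotic genes and 3 of the 4 S phase cyclins and kinase among them.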

Other observations

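Histone genes of the Hist1h, Hist2h and Hist3h names were looked at after the other values had been seen. They stand for the replication-dependent histone genes, whose transcripts are made in S phase and lack the usual poly(A) tail. The set was drawn by name, and its members were not checked for this trait. The libraries were depleted of ribosomal RNA, so such transcripts can be captured. Of 66 genes of these names with an accession, 41 were tested. Their counts summed to 587 and 391 CPM in LPS replicates 1 and 2 and 1020 and 482 CPM in control replicates 1 and 2. The LPS sum was the lower within each replicate number, but the groups overlapped. The median log2 fold change of the 41 was -0.83, against -0.05 over all genes tested, and the 1 gene of the 41 that edgeR called was lower, against 1.79% lower over all genes tested. That gene, H2bc21, a histone H2B gene, had 15 and 12 counts in LPS and 49 and 70 in control (-2.02 ± 0.34, adjusted p = 0.024). It was included by its name, and whether it is replication-dependent was not checked. Histone genes are near-identical in sequence, and counting could split reads between them.

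Chek2 lies 7 bases from Hscb, a gene of iron-sulphur cluster assembly on the opposite strand. Hscb had 12 and 7 counts in LPS and 48 and 54 in control (-2.32, edgeR adjusted p = 0.030), and Chek2 had 23 and 14 counts in LPS and 58 and 95 in control. Both genes fell after LPS. The strand setting of the counting is not given, so reads from such neighbours cannot be told apart.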
